A study of Mus musculus with 52 samples.

Results

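Mouse cell aggregates at a stage called S3 that had been kept without the GSK3 inhibitor CHIR-99021 (CHIR) were compared with S3 aggregates that lacked 1 of 3 other agents of the same medium. Of the 52 RNA-seq libraries of the series, 2 are S3 aggregates without CHIR, and the comparison sets them against 6 libraries, 2 each without 8Br-cAMP, without Birabresib and without CD1530. All of them came from the cell line mc6-1/Mu-mClover3-10#, with a wild-type genotype per the labels, as did the pair of S3 libraries in the full medium, which is given beside the comparison. Per the labels, S1 aggregates spent 1 day in 4C-64C medium to become S2, and S2 aggregates spent 1 further day in it to become S3, with 1 agent left out in each omission group. 8Br-cAMP is a cell-permeable analogue of cyclic AMP, Birabresib blocks BET bromodomain proteins, and CD1530 activates the gamma receptor for retinoic acid. Each omission group therefore still held the other agents of the medium, so a gene that differs from each of the 3 pairs differs from aggregates that had CHIR but were also short of something. The labels do not say whether the first day of an S3 omission was spent in the full medium, nor do they tie the 2 libraries of any group to separate cultures. The p-values below then measure only the spread between these libraries, which may be technical.

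In the Wnt/beta-catenin pathway, a destruction complex built on Axin and APC lets GSK3 phosphorylate beta-catenin, which is then degraded. A Wnt ligand at the cell surface, or an inhibitor such as CHIR inside the cell, spares beta-catenin, and it enters the nucleus and works with TCF and LEF proteins on target genes. Several of those targets feed back on the pathway, among them Axin2 of the destruction complex, the ubiquitin ligases Rnf43 and Znrf3 that clear Frizzled receptors, and Notum, which removes the lipid that Wnt ligands need. In the early mouse embryo the pathway is known for the primitive streak, with its factor Brachyury (T), and for the Cdx and posterior Hox genes of the body axis.

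The libraries without CHIR held 39079974 and 39099463 counts, and all S3 libraries ranged from 34775392 to 57895915 counts. Values are CPM, counts divided by the size of their library, scaled by edgeR's TMM factors. The SD of the log2 difference between the 2 libraries of a group was 0.138 to 0.156 at S3. The full-medium pair had 0.903% and 0.775% of its counts on mitochondrial genes, against 1.89% to 3.43% in the omission libraries, and 4 genes were higher and 42 lower in it than in each of the 4 omissions, 0.016% and 0.168% of the genes tested. By the correlation of log2 CPM it did not stand apart from the omissions. Its correlations ran from 0.97 to 0.971 with the libraries without CHIR and from 0.975 to 0.98 with the other omissions, and the libraries without CHIR reached 0.965 to 0.97 with the other omissions.

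Without CHIR at S3, 14 of 24 Wnt target genes, 8 of 19 primitive streak genes and 13 of 37 Cdx and Hox genes fell, while 14 of 28 genes of extraembryonic endoderm, 6 of 18 of the retinoic acid response and 5 of 22 of trophectoderm rose. Over all genes, 335 genes were higher and 407 lower in S3 aggregates without CHIR than in each of the 3 other omissions, 1.34% and 1.62% of the 25056 genes tested. To be counted, a gene had to pass edgeR's quasi-likelihood test (adjusted p below 0.05) and differ by at least 1 on the log2 scale from each pair, in the same direction. Against single pairs, the higher and lower genes numbered 1552 and 1172 against aggregates without 8Br-cAMP (6.19% and 4.68%), 730 and 2103 against those without Birabresib (2.91% and 8.39%), and 1732 and 786 against those without CD1530 (6.91% and 3.14%). The same rule gave 140 higher and 333 lower genes for 8Br-cAMP (0.559% and 1.33%), 709 and 43 for Birabresib (2.83% and 0.172%), and 44 and 424 for CD1530 (0.176% and 1.69%). Against the mean of the 3 other omissions in 1 contrast, 1252 were higher and 994 lower (5% and 3.97%). Against the full medium, aggregates without CHIR had 1264 higher and 1030 lower genes (5.04% and 4.11%), and these included 310 of the 335 and 341 of the 407. Of the 742 genes, 26 had no count in either library without CHIR and 4 had none in the other 6. A mean of 5 CPM or more in 1 of the 2 sets was reached by 201 of the higher and 227 of the lower genes.

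**Figure D1:**
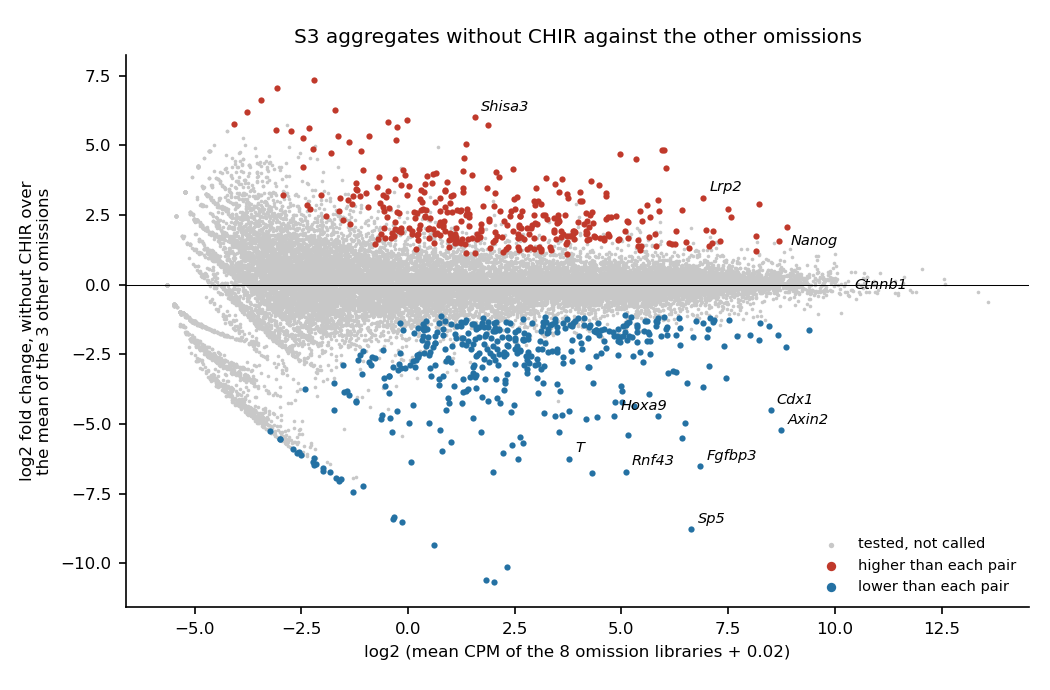
Each point is 1 of the 25056 genes tested: its mean level over the 8 S3 omission libraries (log2 CPM plus 0.02, horizontal) and its log2 fold change without CHIR over the mean of the 3 other omissions (vertical). Red points are the 335 genes higher and blue points the 407 genes lower than each of the 3 pairs; Sp5, Fgfbp3, Rnf43, Axin2 and Cdx1 lie low among well-expressed genes. Points on the curved lower edge have no count without CHIR, and their fitted fold changes are not bounds.

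Axin2, the feedback component of the destruction complex (chr11:108920349-108950783, plus strand, mm10), stood at 14.5 and 15.3 CPM without CHIR. It reached 741 and 752 CPM without 8Br-cAMP, 508 and 507 CPM without Birabresib, 437 and 458 CPM without CD1530, and 467 and 439 CPM in the full medium. Every library that had CHIR was far above both that did not, and the log2 fold change against the mean of the 3 other omissions was -5.22 (SE 0.17; largest of the 3 adjusted p = 4.8e-22). Sp5, a transcription factor that is a direct Wnt target in embryos and stem cells (chr2:70474923-70477729, plus strand), was almost absent, with 0.0528 and 0.478 CPM from 20 counts in all. The other omissions held 219 and 239 CPM, 84.4 and 72.2 CPM, and 80.7 and 97.9 CPM of Sp5, in the order 8Br-cAMP, Birabresib, CD1530, and the full medium held 122 and 110 CPM. Its log2 fold change was -8.77 (SE 0.27).

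Of the 24 Wnt target and feedback genes in the list, 14 fell and 2 rose against each of the 3 pairs, and the list's median log2 fold change was -1.86, against 0.00 over all genes tested. Among the feedback genes, Rnf43 fell to 0.475 and 0.371 CPM without CHIR, against 32.8 to 57.5 CPM in the 6 other libraries (log2 fold change -6.71, SE 0.27). Its partner Znrf3 moved much less, with 27.3 and 26 CPM against 81.9 to 106 CPM (-1.82, SE 0.09). Nkd1, an inhibitor of Dishevelled, fell to 3.22 and 3.34 CPM, against 57.8 to 208 CPM (-4.97, SE 0.20). Notum had 9.9 and 9.87 CPM without CHIR, against 75.2 to 185 CPM (-3.52, SE 0.17). The secreted inhibitor Wif1 fell as well, at a low level of 0.422 and 0.265 CPM against 1.38 to 8.68 CPM. Apcdd1, a membrane inhibitor of the pathway, fell to 50.8 and 49.9 CPM, against 107 to 207 CPM, and Tnfrsf19, a receptor of the TNF family, to 42.2 and 43.7 CPM, against 151 to 315 CPM.

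The nuclear partners of beta-catenin split in 2 directions. Lef1 fell to 0.924 and 0.902 CPM without CHIR, against 18.2 to 90.8 CPM in the other omissions (-5.40, SE 0.15), and Tcf7 fell to 43 and 40.7 CPM, against 120 to 194 CPM (-1.89, SE 0.08). Tcf7l1, which mostly represses in mouse stem cells, rose to 141 and 136 CPM, against 43.7 to 61.7 CPM (1.47, SE 0.14). Tcf7l2 rose to 37.8 and 36.2 CPM, against 9.82 to 15.2 CPM (1.62, SE 0.10). These were the only 2 of 24 transduction genes to pass, both upward. For beta-catenin itself, Ctnnb1 had 1018 and 1037 CPM without CHIR, against 1118 to 1591 CPM, and did not pass (largest adjusted p = 0.49). Gsk3b, the target of CHIR, had 137.5 and 136.9 CPM against 117.2 to 150.5 CPM and did not pass either. For Tcf7 and Apcdd1 the full medium was nearer: its 69.1 and 61.2 CPM of Tcf7 and 100 and 95 CPM of Apcdd1 left log2 fold changes without CHIR of -0.64 and -0.95, short of the size required.

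The remaining members that fell were the transcription factors Sp8, with 2.48 and 1.96 CPM against 6.21 to 27.2 CPM, and Nkx1-2, with 1.53 and 1.25 CPM against 6.39 to 67.1 CPM, and the cyclin Ccnd1, with 10.7 and 9.31 CPM against 41.9 to 65.7 CPM. Sfrp5, a secreted protein that binds Wnt ligands, rose to 13.9 and 13.7 CPM without CHIR, against 0.0465 to 0.646 CPM (5.73, SE 0.39). The receptor Fzd7 rose to 144 and 141 CPM, against 37.5 to 69.9 CPM (1.44, SE 0.07). The 8 members that did not pass were Nkd2, Lgr5, Kremen1, Bambi, Dkk1, Prickle1, Ascl2 and Myc. Of these, Myc averaged 43.6 CPM without CHIR and 35.0 CPM without CD1530, but 9.81 CPM without 8Br-cAMP and 5.64 CPM without Birabresib, so its level without CHIR matched 1 pair and exceeded the other 2. About 38.1% of Notum's exon bases, 23.4% of those of Ccnd1 and 16.6% of those of Nkx1-2 overlap exons of another gene. The strand setting behind the counts is not given.

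**Figure D2:**
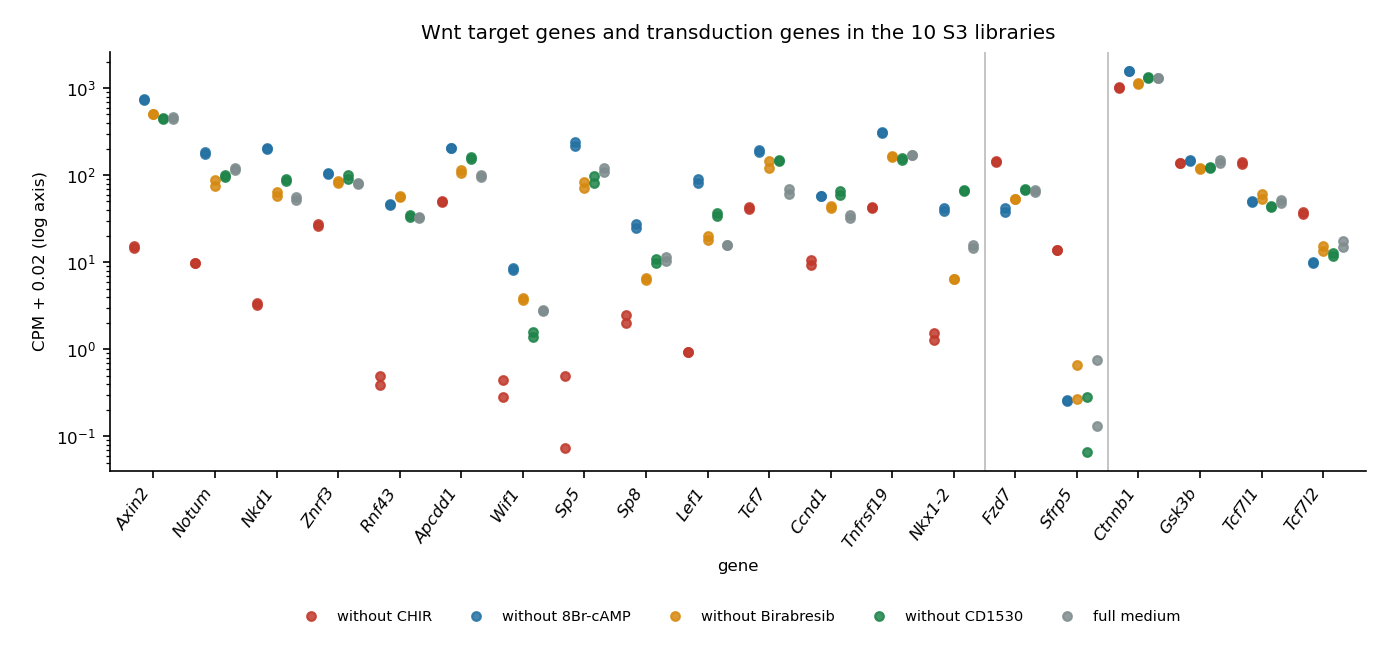
CPM plus 0.02 on a log axis in each of the 10 S3 libraries, 1 point per library, for the 14 Wnt targets that fell (left), the 2 that rose (middle) and 4 transduction genes (right). Red points are the libraries without CHIR: they are below all others for the left group, above all others for Fzd7, Sfrp5, Tcf7l1 and Tcf7l2, and among the others for Gsk3b. Ctnnb1 is also lowest there, without passing the test.

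Promoter sequence was looked up for the letters that TCF and LEF proteins are known to bind, since these genes fell together. The letters searched were CTTTGAA and CTTTGAT and, on the other strand, TTCAAAG and ATCAAAG, in the RefSeq window from 250 bases before to 50 bases after each start. At least 1 match stood in 42 of the 273 lower genes that have a window (15.4%), in 12 of 241 higher genes (4.98%) and in 1168 of 15049 tested genes (7.76%). A match is a description of letters and shows no binding. The windows of Sp5, of T and of Axin2 are shown because these genes are among those that fell furthest and differ in this respect, with the match in capitals: Sp5 has 1 match on the plus strand beginning 104 bases before the start, T has 1 on the minus strand beginning 235 bases before it, and Axin2 has none in this window. All are in the direction of the gene, in build GRCm38.p6.
Sp5, chr2:70474673-70474972, plus strand: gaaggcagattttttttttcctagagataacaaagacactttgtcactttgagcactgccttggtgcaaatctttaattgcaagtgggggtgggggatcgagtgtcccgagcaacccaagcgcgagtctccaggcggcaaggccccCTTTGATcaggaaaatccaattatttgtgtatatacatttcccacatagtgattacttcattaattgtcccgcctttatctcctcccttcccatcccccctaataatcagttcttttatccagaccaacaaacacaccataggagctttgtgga
T, chr17:8434173-8434472, plus strand: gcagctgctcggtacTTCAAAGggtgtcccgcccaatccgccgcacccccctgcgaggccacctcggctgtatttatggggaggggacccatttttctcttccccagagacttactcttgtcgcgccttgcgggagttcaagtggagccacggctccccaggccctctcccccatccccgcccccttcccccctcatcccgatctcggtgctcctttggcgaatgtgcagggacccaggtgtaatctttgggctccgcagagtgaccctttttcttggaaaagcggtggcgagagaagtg
Axin2, chr11:108920099-108920398, plus strand: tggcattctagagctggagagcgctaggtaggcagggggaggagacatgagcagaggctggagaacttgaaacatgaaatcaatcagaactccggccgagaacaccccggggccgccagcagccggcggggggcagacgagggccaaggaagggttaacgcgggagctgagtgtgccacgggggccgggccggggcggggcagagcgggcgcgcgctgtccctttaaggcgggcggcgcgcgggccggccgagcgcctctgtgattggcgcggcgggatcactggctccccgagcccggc

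Among 18 Wnt ligand genes tested, 9 were lower and none was higher than in each of the other omissions, with a median log2 fold change of -2.35. Wnt6 led by level, with 3.06 and 2.55 CPM without CHIR, against 61 to 105 CPM in the 6 other libraries (-4.73, SE 0.20). Wnt5b fell to 2.48 and 1.96 CPM, against 19.9 to 37 CPM (-3.52, SE 0.19). Wnt3, the ligand needed for gastrulation in the mouse embryo, fell to 0.528 and 0.796 CPM, against 3.21 to 6.35 CPM, and Wnt8a to 2.69 and 2.39 CPM, against 5.13 to 14.3 CPM. Wnt10a, Wnt10b, Wnt7a, Wnt9b and Wnt16 also passed, all below 1 CPM without CHIR; Wnt9b rests on 2 counts there. With library 1 of the CHIR omission left out, 5 ligands passed in place of 9, and neither Wnt9b nor Wnt16 was among them. Wls, which carries Wnt ligands to the cell surface, stood at 64.7 and 65.2 CPM, against 114 to 279 CPM, and missed the size threshold against the pair without CD1530.

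Among the genes that fell most against whichever pair was nearest, 2 had no count at all without CHIR. Dkk4, a secreted Wnt antagonist, had 2.63 to 9.26 CPM in the other omissions and was at least 133-fold lower without CHIR than the mean of those 6 libraries, with its side set to 3 counts over the 2 libraries. Htr5a, a serotonin receptor, was at least 176-fold lower without CHIR by the same measure, but most of that mean came from 1 pair: its level averaged 16.9 CPM without Birabresib, 1.27 CPM without 8Br-cAMP and 1.72 CPM without CD1530. Fgfbp3, a secreted FGF-binding protein, fell to 1.4 and 1.41 CPM, against 66.7 to 285 CPM (-6.52, SE 0.19). Lad1, a protein of basement membrane anchoring, fell to 2.85 and 2.07 CPM, against 94 to 142 CPM (-5.50, SE 0.18). The serine protease Prss56 fell to 0.0264 and 0.106 CPM, against 2.04 to 13.9 CPM. Bpifb5 fell to 0.0528 and 0.186 CPM, against 3.07 to 10.2 CPM.

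Of the 19 primitive streak genes tested, 8 fell, 3 rose and 8 did not pass, with a median of -0.91. T, the streak factor Brachyury (chr17:8434423-8442496, plus strand), had 0.158 and 0.212 CPM without CHIR. It had 11.3 and 12.8 CPM without 8Br-cAMP, 6.37 and 7.27 CPM without Birabresib, 34 and 37.2 CPM without CD1530, and 4.17 and 4.15 CPM in the full medium (-6.25, SE 0.32; largest adjusted p = 1.8e-14). Evx1, a homeobox gene of the posterior streak, fell to 0.132 and 0.292 CPM, against 11.3 to 45.5 CPM (-6.75, SE 0.43). Fgf8 fell to 0.422 and 0.345 CPM, against 10.1 to 21.6 CPM, and Mixl1 to 0.158 and 0.345 CPM, against 1.25 to 9.7 CPM. Eomes and Nodal, which also act in the streak, had means of 18.6 and 49.5 CPM without CHIR and did not pass; their other omissions averaged 11.5 to 42.9 CPM and 24.4 to 63.2 CPM. Of the 8 that fell, Sp5 is also counted among the Wnt targets, and Cdx1, Cdx2 and Cdx4 among the Cdx and Hox genes. The 3 list members that rose were Foxa2, Cyp26a1 and Hand1, and each also belongs to a list described below.

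The Cdx genes, which set up posterior identity and activate posterior Hox genes, fell as a family. Cdx1 fell to 20.1 and 19.1 CPM without CHIR, against 309 to 759 CPM in the other omissions and 393 and 364 CPM in the full medium (-4.50, SE 0.18). Cdx2 fell to 2.01 and 2.02 CPM, against 17.7 to 104 CPM (-4.34, SE 0.32), and Cdx4 to 0.0528 and 0.371 CPM, against 1.01 to 5.33 CPM. Of the 37 Cdx and Hox genes tested, 13 fell and 2 rose, with a median of -1.75. The summed level of the list was 369 and 380 CPM without CHIR and 568 to 1547 CPM in the other omissions.

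Within the HoxA cluster the direction turned between Hoxa5 and Hoxa7. Hoxa4 rose to 35 and 33 CPM without CHIR, against 1.14 to 6.75 CPM (3.62, SE 0.17), and Hoxa3 to 44.1 and 42.8 CPM, against 6.1 to 22.6 CPM (1.66, SE 0.16). Hoxa5, with 86.9 and 88.6 CPM against 10 to 50 CPM, was higher than every other library but missed the size threshold against the pair without Birabresib. On the other side, Hoxa7 fell to 3.77 and 3.9 CPM, against 12.3 to 50.3 CPM (-2.58, SE 0.24), Hoxa9 to 1.43 and 1.19 CPM, against 19.6 to 58.6 CPM (-4.71, SE 0.26), and Hoxa10 to 1.24 and 1.22 CPM, against 6.03 to 11.7 CPM (-2.83, SE 0.26). In the HoxD cluster, Hoxd1, Hoxd4, Hoxd8 and Hoxd9 fell. Hoxd9 stood at 0.739 and 0.557 CPM, against 5.77 to 20 CPM, and Hoxd4 at 0.0264 and 0.0531 CPM, against 0.82 to 5.08 CPM, with 52.3% of its exon bases shared with another gene. Hoxb6, Hoxb7 and Hoxc6 fell in the remaining clusters. Hoxb9, with 19.2 and 23.4 CPM against 24.6 to 72.4 CPM, did not pass. The turn within HoxA was noticed in the values and has no test of its own.

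**Figure D3:**
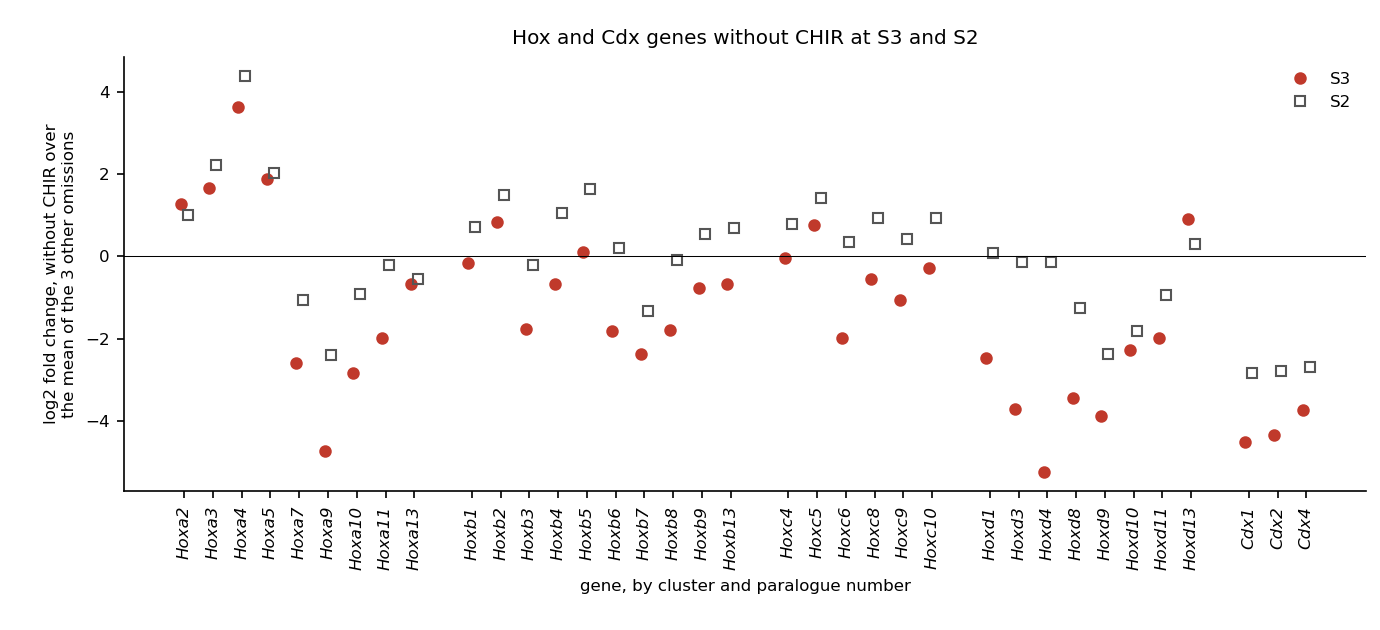
Log2 fold change without CHIR over the mean of the 3 other omissions (vertical) for tested Hox and Cdx genes in cluster order (horizontal), with S3 as filled circles and S2 as open squares. Hoxa2 to Hoxa5 lie above 0 and Hoxa7 to Hoxa13 below it on both days, and most Hoxb, Hoxc and Hoxd genes lie lower at S3 than at S2.

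On the higher side, genes of extraembryonic endoderm, the lineage that forms the yolk sac, made up the list with the most higher genes. Of 28 tested, 14 rose and 1 fell, with a median of 1.57. In bulk aggregates, more cells of a type and more RNA of its genes per cell cannot be told apart. Cubn, an endocytic receptor of visceral endoderm (chr2:13276338-13491813), rose to 214 and 229 CPM without CHIR. It stood at 2.16 and 2.63 CPM without 8Br-cAMP, 17.2 and 18.3 CPM without Birabresib, 11.6 and 11.5 CPM without CD1530, and 10.9 and 13.8 CPM in the full medium (4.82, SE 0.20; largest adjusted p = 5.7e-13). Its partners moved with it: Lrp2, the receptor megalin, rose to 363 and 355 CPM, against 37.9 to 44.6 CPM (3.12, SE 0.14), and Amn, which brings cubilin to the membrane, to 11.5 and 11.3 CPM, against 0.915 to 3.83 CPM (2.30, SE 0.17). The adaptor Dab2, which acts in the same uptake, rose to 118 and 131 CPM, against 13.4 to 48.1 CPM (2.42, SE 0.09).

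Transcription factors of the lineage rose in part. Gata4 rose to 68.2 and 67.2 CPM without CHIR, against 3.71 to 26.8 CPM (2.46, SE 0.12), and Sox7 to 62.2 and 63.9 CPM, against 0.712 to 17.4 CPM (3.59, SE 0.14). Foxa2 had 14.8 CPM in both libraries, against 0.977 to 4.84 CPM. Gata6, with 87.7 and 82.9 CPM against 7.54 to 54.8 CPM, was higher than every other library but did not reach the size required against each pair. Sox17 had 19.5 and 18.4 CPM without CHIR, below the 40.2 and 35 CPM without Birabresib. Basement membrane genes rose with them: Col4a1 to 822 and 806 CPM, against 49.5 to 207 CPM (2.90, SE 0.15), and Lama1 to 1040 and 1021 CPM, against 106.8 to 385.7 CPM (2.06, SE 0.13). Ttr, a carrier protein of visceral endoderm, rose at a low level, to 1.77 and 2.02 CPM against at most 0.138 CPM. Apoa1 had no count without CHIR, Afp averaged 0.318 CPM and Hnf4a 2.82 CPM, and none of these 3 visceral endoderm genes passed. Cited1 was the member that fell.

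Trophectoderm genes gave a mixed result. Of 22 tested, 5 rose and 1, Cdx2, fell, with a median of 1.00. Hand1, a factor of trophoblast giant cells and extraembryonic mesoderm, rose to 8.74 and 8.25 CPM without CHIR, against 0 to 1.23 CPM (5.05, SE 0.32). Gata3 rose to 22.2 and 24.2 CPM, against 1.11 to 4.75 CPM (2.99, SE 0.17), Plac1 to 17.1 and 19.3 CPM, against 0.407 to 1.89 CPM (4.13, SE 0.26), and Tfap2c to 107 and 102 CPM, against 28.3 to 34.5 CPM (1.72, SE 0.11). The growth factor receptor Fgfr2 was the fifth. Of the other markers, Krt8 had 612 and 600 CPM, against 53.5 to 435 CPM, and Krt18 399 and 403 CPM, against 47.1 to 390 CPM; neither passed, and Elf5 was at most 0.692 CPM in any of the 8 libraries. Summed over each list, trophectoderm genes had 9578 and 9633 CPM without CHIR and 6820 to 9483 CPM in the other omissions, and endoderm genes 7803 and 7895 CPM and 2488 to 4284 CPM.

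**Figure D4:**
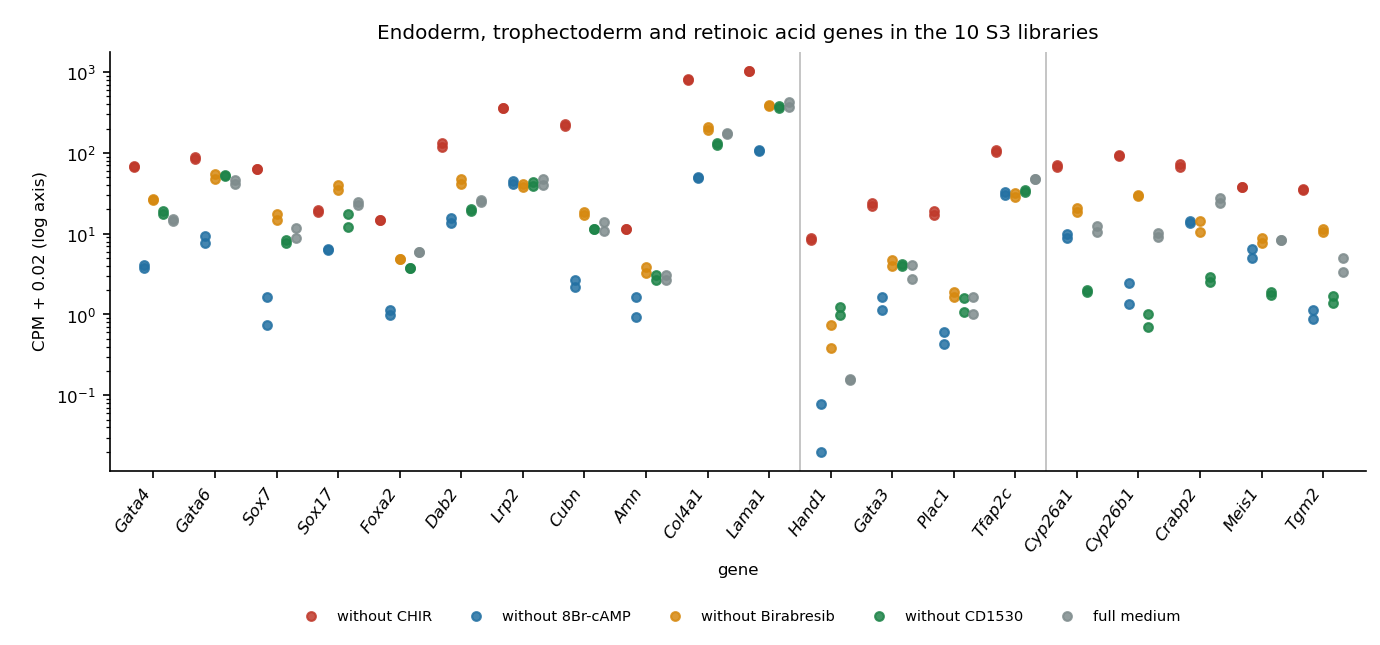
CPM plus 0.02 on a log axis in each of the 10 S3 libraries, 1 point per library, for endoderm genes (left), trophectoderm genes (middle) and retinoic acid response genes (right). Red points, the libraries without CHIR, are above all other points for each gene drawn except Sox17, which lies among them.

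Medium without CHIR still held CD1530, and of 18 retinoic acid response genes tested, 6 rose, none fell and 12 did not pass, with a median of 1.26. Cyp26a1, the enzyme that breaks down retinoic acid, rose to 67.5 and 70 CPM without CHIR. The other omissions held 9.99 and 8.71 CPM without 8Br-cAMP, 20.9 and 18.8 CPM without Birabresib, and only 1.86 and 1.98 CPM without the receptor agonist CD1530, and the full medium held 12.6 and 10.5 CPM (3.28, SE 0.15). Cyp26b1 followed the same order, with 95.3 and 90.2 CPM without CHIR, 1.32 and 2.43 CPM without 8Br-cAMP, 29.9 and 29.1 CPM without Birabresib and 0.675 and 1.01 CPM without CD1530. Crabp2, which carries retinoic acid to its receptor, rose to 73.8 and 66.4 CPM, against 2.51 to 14.5 CPM (3.17, SE 0.20). The full medium held 27.7 and 23.6 CPM of Crabp2, and the log2 fold change against it was 1.45 (SE 0.27). The mean of the 3 other omissions, used for these fold changes and the list's median, includes the pair without CD1530. Crabp2 differed by 4.69 from that pair, and by 2.33 and 2.50 from those without 8Br-cAMP and Birabresib. The homeobox gene Meis1 rose to 37.7 CPM in both libraries, against 1.7 to 8.74 CPM. Tgm2, a transglutaminase, rose to 35.3 and 34.5 CPM, against 0.854 to 11.4 CPM. About 21.8% of the exon bases of Tgm2 and 18.3% of those of Meis1 overlap another gene. Hoxa3, given above, was the sixth. The receptor gene Rarb, with 9.58 and 8.76 CPM against 0.41 to 5.22 CPM, missed the size threshold against the pair without Birabresib. Stra8 did not pass: its 362 and 366 CPM were below the 448 to 534 CPM without 8Br-cAMP and Birabresib, and above the 33.7 and 33 CPM without CD1530.

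Outside the lists, Shisa3, which holds back Wnt and FGF receptors in the endoplasmic reticulum, rose to 11.5 and 11 CPM without CHIR, against 0.0585 to 0.287 CPM (6.00, SE 0.33). The secreted chaperone Clu rose to 230 and 216 CPM, against 7.67 to 20.9 CPM (4.19, SE 0.10). The cell cycle inhibitor Cdkn1c rose to 13.1 and 11.7 CPM, against 1.02 to 1.48 CPM (3.27, SE 0.19), with 30.7% of its exon bases shared with another gene. Sema6d, a membrane semaphorin, rose to 12.7 and 9.58 CPM, against 0.485 to 1.75 CPM, and Ldoc1 to 8.92 and 9.82 CPM, against 0.233 to 0.922 CPM.

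Most pluripotency genes did not pass. Of 22 tested, 3 rose and none fell, with a median of 0.68. Fgf4, a growth factor of the epiblast, rose to 157 and 161 CPM without CHIR, against 10.3 to 45.6 CPM (3.04, SE 0.10), Prdm14 to 42.5 and 41.4 CPM, against 5.5 to 18.1 CPM (2.07, SE 0.15), and Tcl1 to 12.7 and 13.4 CPM, against 0.994 to 6.11 CPM (2.15, SE 0.15). Prdm14 missed the size threshold against the full medium, which held 23.4 and 25.1 CPM. Pou5f1 had 294 and 287 CPM without CHIR, against 95.2 to 406 CPM, Sox2 366 and 353 CPM, against 144 to 360 CPM, and Esrrb 449 and 448 CPM, against 229 to 631 CPM. Nanog, with 755 and 764 CPM against 222 to 446 CPM, was higher than every other library but short of the size required against the pair without CD1530. Among formative genes, Pou3f1 rose to 5.17 and 5.54 CPM, against 0.409 to 1.64 CPM, and Car4 to 4.94 and 5.84 CPM, against 1.26 to 2.3 CPM; these were 2 of 14, and none fell.

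The smaller lists held few calls. Of 16 BMP genes, 3 rose and 1 fell: the antagonist Nog rose to 1.74 and 1.8 CPM, against 0.175 to 0.438 CPM, and Bmper and Hand1 rose, while Msx1 fell to 1.74 and 1.75 CPM, against 6.62 to 104 CPM (-3.63, SE 0.19). Of 18 ERK targets, Egr1 fell to 8.61 and 10.7 CPM, against 39.7 to 164 CPM, Ccnd1 fell, and the phosphatase Dusp5 rose to 54.5 and 56.3 CPM, against 12.2 to 18.8 CPM, with 22.1% of its exon bases shared with another gene. Of 17 p53 targets, 2 fell and none rose. The cell cycle inhibitor Cdkn1a fell to 139 and 138 CPM, against 396 to 603 CPM (-1.81, SE 0.12), and Phlda3 to 90.8 and 82.8 CPM, against 224 to 591 CPM (-1.99, SE 0.12). Of 19 adhesion genes, the tight junction genes Ocln and Cldn6 fell, to 8.71 and 10.5 CPM against 19.6 to 35.3 CPM and to 70.5 and 70.4 CPM against 149 to 192 CPM, and the repressor Zeb2 rose to 14.3 and 14.5 CPM, against 2.88 to 4.25 CPM. Ocln lost its call without library 1 of the CHIR omission, and Cldn6, at -0.93 against the full medium, lost its call when that pair was added. Of 16 stress genes, Cebpb, with 20.7% of its exon bases shared with another gene, and Slc7a11 rose and Vldlr fell; Slc7a11 lost its call without library 2 of the CHIR omission and without library 1 of the Birabresib omission. In metabolism, 1 of 18 glycolysis genes, Ndrg1, rose. None passed among the tested members of the lists of 26 genes of the 2-cell-like state, 16 of the cAMP response, 6 of the BET response, 10 Nodal targets, 20 Myc and ribosome genes, 18 cell cycle genes, 20 cholesterol genes, 19 germline genes and 16 fibroblast genes. All members of the cell cycle, Nodal and BET lists had positive fold changes, with medians of 0.405, 0.379 and 0.428, and the other lists named here held both signs. The cell cycle list summed to 4272 and 4354 CPM without CHIR, 2904 to 3895 CPM in the other omissions and 3003 and 3056 CPM in the full medium. The fibroblast list, for feeder cells, summed to 173 and 177 CPM without CHIR and 111 to 289 CPM in the other omissions, and the 2-cell list to 64.3 and 65.0 CPM and 14.5 to 201 CPM. Zscan4c had 11 and 10.3 CPM, against 31.2 and 31.4 CPM without Birabresib and 1.44 to 6.96 CPM in the other 4 libraries; its near-identical copies may share reads.

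The S2 libraries, from 1 day earlier, allow the same question in samples that form no part of the S3 contrasts, although they share the count filter and the dispersion estimate with them. By the same rule, 234 genes were higher and 261 lower in S2 aggregates without CHIR than in each of the 3 other S2 omissions, 0.934% and 1.04% of the genes tested. Of the higher genes, 151 were shared, 45.1% of the S3 set and 64.5% of the S2 set. Of the lower genes, 168 were shared, 41.3% of the S3 set and 64.4% of the S2 set. No gene was called in opposite directions on the 2 days. The S2 fold change had the S3 sign in 325 of the 335 higher genes (97%) and 398 of the 407 lower genes (97.8%), beside 48.9% and 51.1% of all genes tested with that sign. The median log2 fold changes of the higher genes were 2.33 at S3 and 1.51 at S2, and those of the lower genes -2.38 at S3 and -1.38 at S2. The S3 values belong to genes chosen for size at S3, so the smaller S2 medians do not by themselves show a growing difference.

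Of the 24 Wnt targets, 12 fell and 2 rose at S2. Those that rose were Sfrp5 and Prickle1, while Fzd7, Ccnd1 and Sp8, called at S3, were not called at S2. Axin2 had 25.7 and 22.9 CPM without CHIR at S2, against 325 to 442 CPM in the other S2 omissions (-3.98, SE 0.16), and Sp5 had 1.5 and 1.55 CPM, against 68.9 to 182 CPM (-6.33, SE 0.21). The difference between the 2 days was tested directly, as the S3 effect minus the S2 effect: 172 genes were higher and 194 lower, 0.686% and 0.774% of the genes tested. Without library 2 of the S2 group without CHIR the first count was 103. Among the genes called at S3, 64 of the higher and 88 of the lower passed this test, all in the direction of their S3 change. These genes were chosen for size at S3, and the difference holds the same S3 values. The shared direction and the number passing are therefore in part built in. For Axin2 the difference was -1.24 (SE 0.18; adjusted p = 2.7e-05), and for Sp5 -2.45 (SE 0.40; adjusted p = 9.7e-05). Rnf43, Nkd1, Ccnd1 and Sp8 also fell further at S3, although Rnf43 and Nkd1 lost this call without library 2 of the S2 group without CHIR, while for Lef1, Notum, Tcf7, Znrf3 and Tnfrsf19 the difference was below the size required.

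Several lists held genes that differed between the days. Of the Wnt ligands, 6 of 18 were lower and none higher by the test of the difference. In the Hox and Cdx list, 17 of 37 were lower and none higher by that test, and 5 fell and 3 rose at S2. For Hoxd4 the S2 fold change was -0.14, with a mean of 0.239 CPM without CHIR, and the difference was -5.08 (SE 0.84; adjusted p = 0.00025). For Hoxb6 the S2 value was 0.20 and the difference -2.01 (SE 0.30), and for Hoxb9 0.54 and -1.30 (SE 0.22). In the endoderm list, 7 of 28 were higher and none lower, and 5 rose and 1 fell at S2. Cubn averaged 6.2 CPM without CHIR at S2, against 1.16 to 3.78 CPM, and the difference was 3.28 (SE 0.35; adjusted p = 1.5e-07). Dab2 averaged 14.8 CPM at S2, within the 6.19 to 21.5 CPM of the other omissions (difference 2.07, SE 0.15), and Lama1 141 CPM, within 69 to 197 CPM (1.91, SE 0.20). Of the retinoic acid genes, 9 rose at S2 and none fell, and by the test of the difference none was higher and 3 were lower. Cyp26a1 had an S2 fold change of 3.51 and a difference of -0.24 (SE 0.25).

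**Figure D5:**
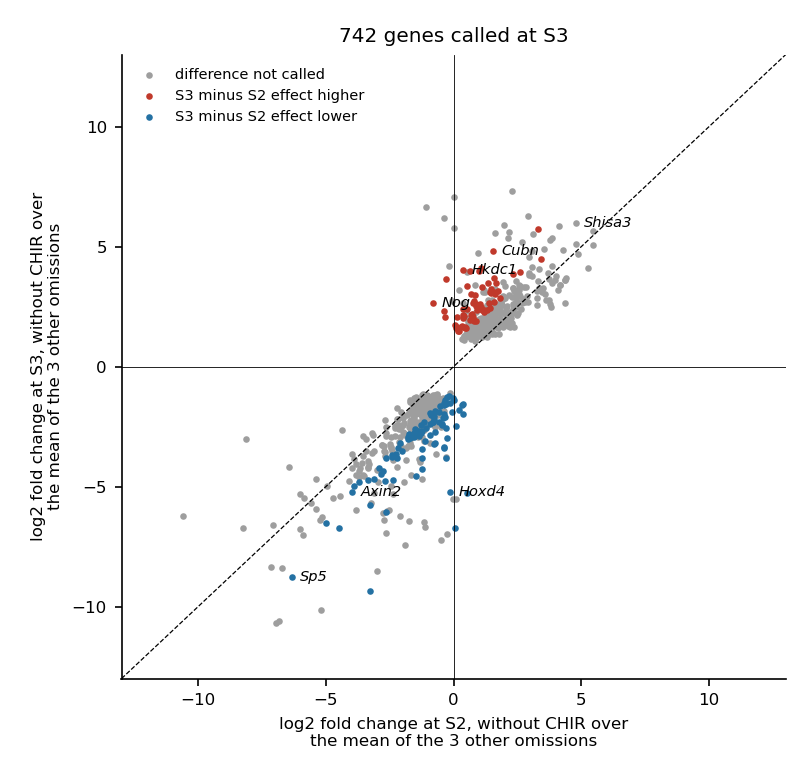
Log2 fold change without CHIR over the mean of the 3 other omissions at S2 (horizontal) and S3 (vertical) for the 742 genes called at S3; the dashed line marks equal change. Red points are the 64 genes with a higher and blue points the 88 with a lower S3 than S2 effect; most of the other points lie in the 2 quadrants where the signs match.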

How the data were processed

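Messenger RNA caught on oligo-dT beads was sequenced as 100-base read pairs, per the labels' protocols. Per the submitters' processing notes, Trimmomatic 0.39, STAR 2.7.10b, featureCounts 2.0.6 and mm10 were used. Neither the annotation nor the strand setting nor the handling of mates is given in the sources used here. What the authors deposited is 1 table of unscaled gene counts, 55291 genes by 52 libraries. Among counts from 1 to 10, 68.8% to 74.3% were even in the S2 and S3 libraries, so mates may have been counted singly, and bounds set with 3 counts cover counting error only in part.

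All 52 libraries were fitted together in edgeR 4.0.16 (R 4.3.3) with 1 mean for each of 26 groups, TMM factors, filterByExpr (25056 genes kept) and Benjamini-Hochberg adjustment over all genes tested. The S3 call uses 3 contrasts, and the fold change with its SE comes from the contrast against the mean of the 3 other omissions. A range over other omissions covers 6 libraries. Gene coordinates and exon overlaps come from GENCODE M21 (mm10), and promoter windows from RefSeq (GRCm38.p6).

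The members and the 25 gene lists were chosen with earlier results of these data known. Genes were named by rule: the 10 higher and 10 lower with the largest smallest difference from the 3 pairs at 5 CPM or more, the called Wnt targets, up to 4 called members of each other list, fixed markers, and the 5 most and 5 least changed between S3 and S2. Further list members, among them Wnt3, Wnt8a, Wls, Gata4, Sox7, Dab2, Lama1, Cyp26b1, Rarb, Stra8, Mixl1, Cdx4, Hoxa3, Hoxa4, Hoxa5, Hoxa7, Hoxa10, Hoxb6 and Hoxb9, were named after their values were seen. Some named genes are not reported here.

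The S3 call was tested on simulated data of 24596 genes with 50 genes changed at each size. It recovered 22% at 2-fold, which is the size threshold itself, 94% at 3-fold, 98% at 4-fold and 100% at 8-fold. No unchanged gene was called. The simulation gave all S3 omission groups a common mean before the change and drew counts from the dispersion trend. Changed genes were picked above a minimum level. It therefore does not cover differences among the 3 other omissions, changed genes at low levels or a spread particular to a gene. Alternatives were DESeq2 1.42.0, another scaling, no count filter, halved counts, other sets of libraries, other call rules and each library left out, where the gene set and dispersion trend of the full fit were kept.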

Additional observations from a re-analysis of the deposited data

Results flagged for a closer look

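The effect of leaving out CHIR differed between S3 and S2 for the following named genes, by the test of the difference itself in edgeR. Values are the S3 effect minus the S2 effect on the log2 scale, each against the mean of the 3 other omissions. The fitted sign changed for Tmem171 (1.44 at S2, SE 0.425, and -1.45 at S3), Nog (-0.79, SE 0.65, and 2.65) and Amn (-0.36, SE 0.25, and 2.30). For Nog and Amn the S2 effect did not pass edgeR's test (adjusted p = 0.46 and 0.36), so no change of direction is shown for them. Among Wnt targets and ligands the difference was -2.45 for Sp5, -2.21 for Rnf43, -1.99 for Sp8, -1.24 for Axin2, -1.14 for Ccnd1, -1.07 for Nkd1, -1.49 for Wnt5b, -1.38 for Wnt6 and 2.42 for Sfrp5. Among Hox, Cdx and other patterning genes it was -5.08 for Hoxd4, -2.33 for Hoxa9, -1.67 for Cdx1, -1.57 for Cdx2, -3.1 for Pax3, -3.01 for Sim2 and -1.38 for Msx1. Endocytosis genes of visceral endoderm had 3.28 for Cubn, 2.66 for Amn and 1.53 for Lrp2. Pluripotency genes had 1.42 for Fgf4 and 1.79 for Tcl1, and the BMP antagonists 3.44 for Nog and 1.47 for Bmper.

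The other genes were Hkdc1, a hexokinase family member, with 3.66, Sct, which encodes the hormone secretin, with 2.84, Sema6d with 2.14, Ldoc1 with 1.36, Egr1 with -1.97, Fgfbp3 with -1.53, Prss56 with -3.39, Bpifb5 with -2.49, the ephrin receptor Epha5 with -3.03, Tmem171 with -2.89 and the tight junction gene Cldn6 with -1.

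Hkdc1 had 12.4 CPM in both S3 libraries without CHIR, against 0.0877 to 3.09 CPM in the other S3 omissions, and averaged 0.275 CPM without CHIR at S2, against 0.0401 to 0.62 CPM. Sct had 6.02 and 4.72 CPM at S3, against 0.261 to 1.4 CPM, and averaged 1.56 CPM at S2, against 0.602 to 3.08 CPM. Pax3, a factor of the dorsal neural tube and somites, had 0.264 and 0.265 CPM at S3, against 3.83 to 12.5 CPM, and averaged 0.816 CPM at S2, against 1.89 to 2.76 CPM. Tmem171 was not lower than each pair at S3: its 0.528 and 0.371 CPM stood beside 0.285 to 0.935 CPM without 8Br-cAMP and CD1530 and 5.67 and 6.62 CPM without Birabresib. Cldn6 passed here at the size threshold and fell short of it with other size factors, halved counts, DESeq2 and the S2 and S3 libraries alone. With 1 library without CHIR left out, Sfrp5, Ldoc1, Rnf43, Nkd1, Prss56, Bpifb5, Cdx2, Nog, Bmper, Sct, Epha5, Sim2, Tmem171 and Cldn6 lost this call in at least 1 case, with the sign kept in each. The SD of the log2 difference between libraries was 0.232 in the S2 group without CHIR and 0.28 in the S2 group without Birabresib, against 0.142 and 0.149 in the same groups at S3; its part in these differences was not tested.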

How the results depend on the processing

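No named gene's S3 fold change or difference between the days changed sign under any alternative run. Counts of called list members moved by more than 1.5 times, or between none and some, in 56 cases. Each case is 1 list and direction under 1 alternative. The S3 counts of 335 higher and 407 lower genes were 941 and 996 with no fold threshold, and 1252 and 994 with 1 contrast against the mean of the 3 other omissions. They stayed within 1.5 times under the other scaling, filter, tool, library set and call rule alternatives, including 310 and 341 when the full-medium pair also had to differ. With 1 library left out in turn they ran from 294 to 322 and from 350 to 390. Of the called genes, 283 of the 335 and 304 of the 407 were kept without library 1 of the CHIR omission, the least of these settings. The S2 counts ran from 206 to 221 and from 213 to 278. For the difference between the days, the higher genes numbered 103 to 164 and the lower ones 133 to 152; the 103 came without library 2 of the S2 group without CHIR.

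Replicate numbers did not pair the samples at S3, where correlations of same-numbered deviations were -0.127 to 0.165. At S2 these correlations were -0.116 to 0.657. The highest was between the S2 groups without CHIR and without Birabresib, whose same-numbered libraries therefore deviated together. Both groups enter the S2 call and the test of the difference between the days. Averaged over the other groups of its stage, a group's correlation was above 0 in 0 of 5 S3 groups and 3 of 5 S2 groups. With the replicate block, S3 libraries alone gave 325 higher and 444 lower genes, against 333 and 458 without it, and S2 gave 210 and 259.

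Of 78 called named genes, 69 kept their call under all 18 alternatives. Of 13 uncalled named genes, 9 stayed uncalled under all of them. Gata6, Krt8 and Nanog gained a call with no fold threshold. The same 3 genes and Tmem171 gained one with 1 contrast against the mean of the 3 other omissions. Epha5 lost its S3 call with halved counts, without either library of the CHIR omission and without library 2 of the Birabresib omission, and Tcf7, Apcdd1, Prdm14 and Cldn6 lost theirs when the full-medium pair was added. Slc7a11, Ocln, Wnt9b and Wnt16 lost theirs in at least 1 setting with a library left out. For genes with no count without CHIR, depth leaves only a bound on the fold; counts halved in every library gave 364 higher and 396 lower genes.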
